A study of Mus musculus with 28 samples.

Results

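Kit, Pdgfra and Kdr are 3 neighbouring genes for receptor tyrosine kinases, and their DNA copy number was followed through 24 mouse tumours measured by exome sequencing. They are 3 of the 20555 autosomal protein-coding genes that could be given a copy number. They were chosen by name, and selected on the copy ratios of these same tumours, so their levels are given as a description, with no test. The tumours came from mice with germline changes of p53, a tumour suppressor that binds DNA as a tetramer. AD/- animals carried an allele for a dimeric p53 and RP/- animals one for a monomeric p53, each opposite a null allele, so no tumour here came from an animal with a wild-type p53 allele. Every animal had a mixed background, 50% BALB/C with 50% C57BL6. Tumours were collected at the animals' end point, and ages are not stated. There were thymic lymphomas, a cancer of developing T cells, from 7 AD and 7 RP animals, and sarcomas, a cancer of mesenchymal tissue, from 5 AD and 5 RP animals. The labels also list ear DNA of 2 AD and 2 RP animals, which is not analysed here. Each tumour is treated as 1 replicate.

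Kit is the receptor for stem cell factor and acts in blood stem cells, mast cells, germ cells and pigment cells. Pdgfra binds platelet-derived growth factors and acts in mesenchymal cells, and Kdr, also called VEGFR2, is the main receptor for VEGF-A on endothelial cells. Binding of a ligand pairs the receptors, which phosphorylate each other and switch on the Ras-MAPK and PI3 kinase pathways. In human tumours the 3 genes lie side by side as they do in the mouse and can be amplified as 1 block, which is known from gliomas and some sarcomas.

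On GRCm38 the genes lie in the order Pdgfra (chr5:75151322-75198206), Kit (chr5:75574987-75656722) and Kdr (chr5:75932827-75979072), by their RefSeq spans. Pdgfra and Kit are read along the plus strand and Kdr along the minus strand, so the start of Kdr is at its far end. The promoters are printed because their places differ relative to a gained stretch in AD sarcoma 1. Each runs from 250 bases before to 50 bases after the start given in the RefSeq promoter table of GRCm38.p6, in the direction of the gene. For Pdgfra and Kdr that start lies inside the span given above, and for Kit at its first base. Capitals mark GGGCGG on either strand (printed as CCGCCC where it lies on the other strand), the core of the GC box.
Pdgfra promoter (chr5:75152001-75152300, plus strand): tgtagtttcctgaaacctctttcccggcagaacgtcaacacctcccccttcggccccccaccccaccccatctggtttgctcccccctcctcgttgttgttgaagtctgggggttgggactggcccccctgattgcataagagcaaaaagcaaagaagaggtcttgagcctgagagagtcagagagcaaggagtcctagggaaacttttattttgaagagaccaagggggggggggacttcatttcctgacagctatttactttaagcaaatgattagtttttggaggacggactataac
Kit promoter (chr5:75574737-75575036, plus strand): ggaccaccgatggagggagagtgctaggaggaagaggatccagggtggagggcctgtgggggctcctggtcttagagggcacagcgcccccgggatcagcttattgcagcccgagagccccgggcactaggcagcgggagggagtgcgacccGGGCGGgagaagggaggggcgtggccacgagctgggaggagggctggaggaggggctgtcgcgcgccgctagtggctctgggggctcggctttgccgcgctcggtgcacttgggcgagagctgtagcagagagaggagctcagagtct
Kdr promoter (chr5:75978406-75978705, minus strand): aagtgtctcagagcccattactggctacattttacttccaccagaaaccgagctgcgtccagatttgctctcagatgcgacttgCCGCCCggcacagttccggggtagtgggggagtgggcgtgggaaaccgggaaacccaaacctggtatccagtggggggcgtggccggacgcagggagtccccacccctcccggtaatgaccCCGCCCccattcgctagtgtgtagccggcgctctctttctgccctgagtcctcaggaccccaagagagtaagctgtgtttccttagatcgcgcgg
The motif has 0 matches in the Pdgfra promoter, 1 in the Kit promoter and 2 in the Kdr promoter. Of 32851 promoters of the same length, 35.7% hold at least 1 match. TATAAA, searched on both strands, is in none of the 3 and in 13.6% of all. These matches describe letters in the sequence and do not show a bound factor.

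Copy number is given as a log2 copy ratio, the tumour over a comparison DNA, so 0 means no difference from that DNA. Each gene was given the overlap-weighted average of its segments and was called gained at 0.3 or above and lost at -0.3 or below. Exome data sample copy number at markers, which are capture targets or windows, and say nothing of the DNA between them. Each tumour had 59 to 517 segments built on 211948 to 212450 markers, and read depth is unknown. In bulk tumour DNA, a gain in a share of the cells and more copies in every cell cannot be told apart. As a check of tissue, the beta T-cell receptor locus was at -0.3 or below in 13 of 14 thymic lymphomas and the alpha locus in 14 of 14, and neither was in any of the 10 sarcomas. Trp53, the engineered gene, ranged from -0.23 to 0.36 over the 24 tumours, was called lost in 0 and gained in 1. Its whole-gene copy ratio does not check which allele an animal carried.

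In thymic lymphomas the 3 receptor genes always had the same value, since 1 segment covered all of them in every one. In AD thymic lymphomas 1 to 7 Kit had 0.41, 0.41, 0.32, 0.23, 0.08, 0.07 and 0.17. In RP thymic lymphomas 1 to 7 it had -0.09, 0.14, 0.15, -0.0041, 0.21, -0.08 and 0.12. The AD values were all above 0 and the RP values were above 0 in 4 tumours and below 0 in 3, and the groups overlapped. Kit was gained in 3 of 7 AD and in 0 of 7 RP tumours, and lost in none of either. At a limit of 0.2 the counts of gained tumours were 4 in AD and 1 in RP, and at 0.5 both were 0. The means were 0.24 ± 0.14 in AD and 0.07 ± 0.12 in RP thymic lymphomas (SD, n = 7 each), a difference of 0.18. Chromosome 5 had 13941 markers in every AD and 13944 in every RP thymic lymphoma, and 13956 in every AD and 13954 in every RP sarcoma. A difference in processing and the genotype therefore cannot be told apart, in either tumour type. The highest AD value equals a ratio of 1.33 over the comparison DNA. Across the genome, 11.4% of genes were gained in at least 3 of the 7 AD thymic lymphomas. How many of those were gained in no RP thymic lymphoma was not counted.

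In sarcomas 1 tumour stood apart. AD sarcomas 1 to 5 had Kit at 1.39, 0.09, 0.21, 0.17 and 0.02, and RP sarcomas 1 to 5 had 0.08, 0.21, 0.03, 0.09 and 0.01. The next highest tumour of the study after AD sarcoma 1 was at 0.41. Kit averaged 0.38 ± 0.57 in AD sarcomas and 0.08 ± 0.08 in RP sarcomas (SD, n = 5 each). Without AD sarcoma 1 the AD mean was 0.13 ± 0.08 (n = 4), so the difference from RP was 0.04 instead of 0.29. Pdgfra had the same value as Kit in each of the 10 sarcomas. Kdr had the same value as Kit in 9 of them and 0.58 in AD sarcoma 1, so Kdr averaged 0.22 ± 0.22 in AD sarcomas and 0.08 ± 0.08 in RP sarcomas. All 10 sarcomas were above 0, and none but AD sarcoma 1 reached 0.3.

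**Figure D1:**
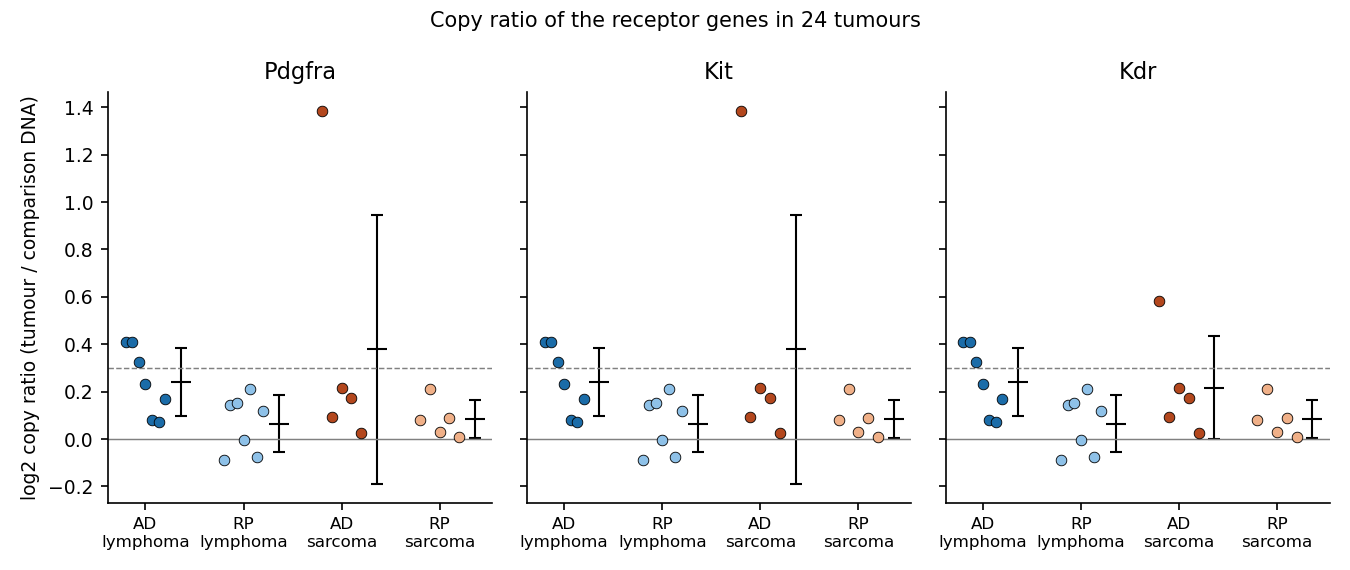
Log2 copy ratio of Pdgfra, Kit and Kdr (vertical axis) in each tumour by group; points are tumours, bars are the mean and SD, and the dashed line is the gain limit of 0.3. AD sarcoma 1 stands at 1.39 for Pdgfra and Kit and at 0.58 for Kdr, and the remaining tumours lie between -0.09 and 0.41 for all 3 genes.

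Between tumour types, Kit averaged 0.15 ± 0.16 in thymic lymphomas (n = 14) and 0.23 ± 0.41 in sarcomas (n = 10). The difference was -0.08, and it was 0.05 without AD sarcoma 1, so its sign rests on that tumour. The 4 groups in order of their median were AD thymic lymphoma at 0.23, AD sarcoma at 0.17, RP thymic lymphoma at 0.12 and RP sarcoma at 0.08. Each of these neighbours overlapped in its values. Of the 24 tumours, 4 had Kit gained and 0 had it lost.

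Outside AD sarcoma 1, the copy number of the receptors was that of a large piece of their chromosome. In 23 tumours 1 segment ran over all 3 genes, reaching 97.9% of Kdr in AD thymic lymphoma 7 and all of it in the others. These segments were 27.6 to 148.3 Mb long with a median of 79.8 Mb, and held 1305 to 13956 markers. In 3 tumours the segment spanned chromosome 5 from its first to its last marker. Kit differed from the length-weighted median of chromosome 5 by -0.05 to 0.02 in these 23 tumours, and by 1.17 in AD sarcoma 1. The correlation of Kit with that median was r = 0.99 over the 23 tumours and 0.55 over all 24; the points share their segments, so this is a description. Set against the chromosome 5 median of each tumour, the AD minus RP difference of the members in thymic lymphomas was 0.000143. In AD thymic lymphomas 1, 2 and 3 the chromosome 5 medians were 0.41, 0.41 and 0.32. Each was the value of the receptors' own segment, so the median is no separate measure there. That segment was 148.3 Mb long in AD thymic lymphoma 1, 69.7 Mb in 2 and 44.6 Mb in 3. The median also equalled the receptors' own segment in AD thymic lymphoma 5 and in RP thymic lymphomas 1, 4 and 6. The difference of 0.000143 was thus near 0 in part by construction.

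**Figure D2:**
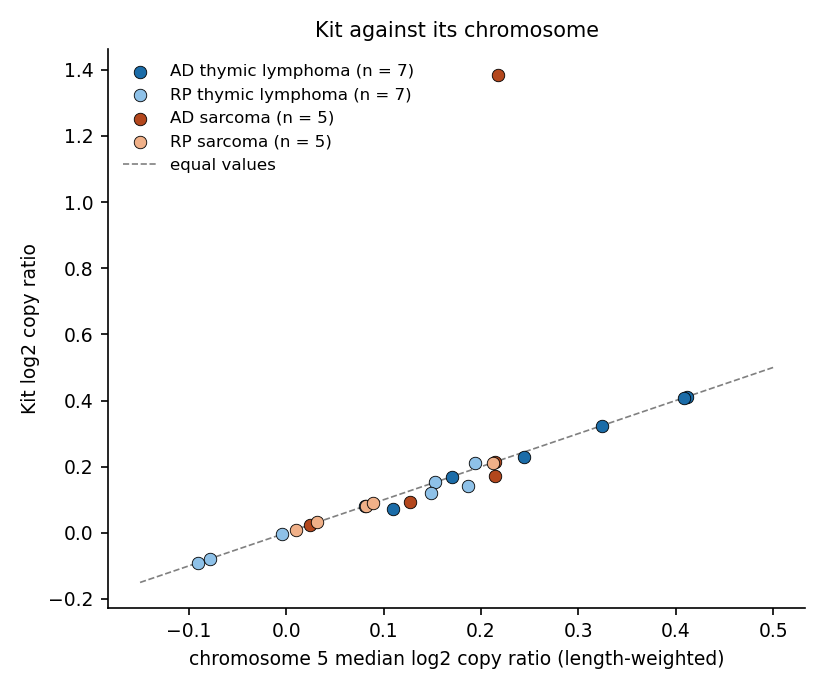
Log2 copy ratio of Kit (vertical axis) against the length-weighted median of chromosome 5 (horizontal axis), 1 point per tumour, coloured by group, with a dashed line of equal values. The 23 tumours within 0.05 of the line have a Kit value set by a large segment, and AD sarcoma 1 stands at 1.39 above a chromosome median of 0.22.

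In AD sarcoma 1 the receptors sat in a short gained stretch. On the near side, chr5:65335523-75076965 was at 0.22 over 666 markers. The gained segment, chr5:75162242-75946818, was at 1.39 over 53 markers and 785 kb, a ratio of 2.61 over the comparison DNA and 2.24 times its near flank. On the far side, chr5:76532764-123098174 was at 0.22 over 4788 markers. The levels on both flanks were thus within 0.01 of each other. The value 1.39 is itself a mean over 53 markers, against at least 1305 markers behind the value of Kit in every other tumour, and no error of a segment mean was used here.

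The gain covered the 3 receptors unequally. It held all of Kit and 76.7% of Pdgfra. The first 10.9 kb of Pdgfra, its promoter included, lies in a gap of 85.3 kb with no marker, so its copy number was not measured. The Pdgfra promoter ends 9942 bases before the first gained marker, whereas the Kit promoter lies inside the gain. Of Kdr, 30.3% lay in the gained segment, which is the end of the gene away from its promoter. A further 63.5% lay in a segment at 0.20 (chr5:75948750-75978101, 21 markers, 29.4 kb), which is the flank level. The change fell inside Kdr, between markers 1931 bases apart. The promoter of Kdr lies 305 bases beyond the end of that ungained segment, in a gap of 162 kb with no marker. The whole-gene value of 0.58 for Kdr is therefore an average of a gained and an ungained portion, and by its largest segment Kdr was at 0.20 and not gained.

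A second gained segment followed. It ran over chr5:76140327-76363554, at 1.43 over 48 markers and 223 kb, a ratio of 2.70. It held Srd5a3, a reductase of polyprenol used in protein glycosylation, and Tmem165, a Golgi protein. It also held Clock, a transcription factor of the circadian clock, Pdcl2, and Nmu, the gene for neuromedin U. The 2 gained segments differed by 0.05 and together held 101 markers and 1008 kb, with the ungained part of Kdr between them. The 4 segment ends were placed only to within gaps of 85.3 kb, 1.93 kb, 162 kb and 169 kb. AD sarcoma 1 had as many markers on chromosome 5 as the other AD sarcomas, and whether the same markers were used around these gaps was not tested. The far end of the ungained part of Kdr, base 75978101, was also the end of the segment over the receptors in AD thymic lymphoma 7.

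Of the 22 protein-coding genes between 74 and 77 Mb on chromosome 5, 7 were at 1 or above in AD sarcoma 1, namely Pdgfra, Kit and the 5 genes of the second segment. Kdr was at 0.58, and the other 14 were at 0.22. Those 14 include Fip1l1, Lnx1, Chic2 and Gsx2 before Pdgfra, and Exoc1 and Cep135 after Nmu. In humans, Fip1l1 and Pdgfra can be joined by a deletion in eosinophilic leukaemia; here Fip1l1 was at the flank level. Genome-wide, 0.399% of genes were gained in AD sarcoma 1 and 0.209% were at 1 or above. In the other 9 sarcomas these 22 genes were between 0.01 and 0.21.

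**Figure D3:**
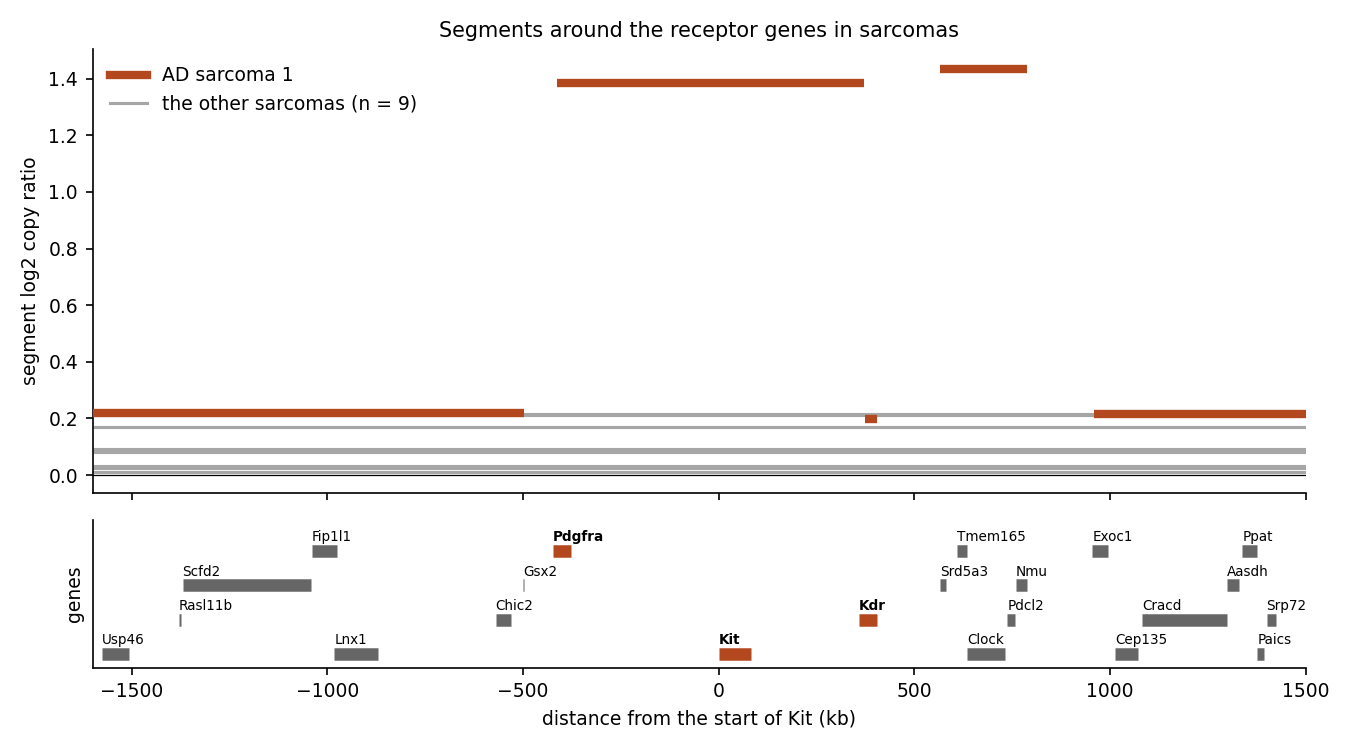
Upper panel: log2 copy ratio of each segment (vertical axis) by distance from the start of Kit in kb (horizontal axis) in AD sarcoma 1 (thick) and the other 9 sarcomas (thin). Lower panel: spans of the protein-coding genes, the members in bold; AD sarcoma 1 rises to 1.39 over Pdgfra, Kit and the end of Kdr and to 1.43 from Srd5a3 to Nmu, and lies near 0.22 elsewhere.

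The receptor gain was 1 of several in this tumour. AD sarcoma 1 had 8 segments of at least 20 markers at 0.5 or above, limits chosen after the values were seen; with at least 5 markers it had 18, of which 7 were below 0.5 elsewhere. In 5 of the 8, all of the other 23 tumours were below 0.5 over the same stretch, and these include both segments at the receptors. The third on chromosome 5, chr5:28071437-28413670, was at 1.34 over 31 markers and held Insig1, En2, Cnpy1 and Rbm33. The remaining 2 were neighbours on chromosome 3, chr3:101283030-102086596 at 0.79 and chr3:102110239-103079028 at 1.11. The second of these held Nras, a Ras GTPase that acts downstream of receptor tyrosine kinases. Over the stretches on chromosome 5 that hold the receptors and Srd5a3 to Nmu, the other 23 tumours ran from -0.09 to 0.41 with a median of 0.12.

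**Figure D4:**
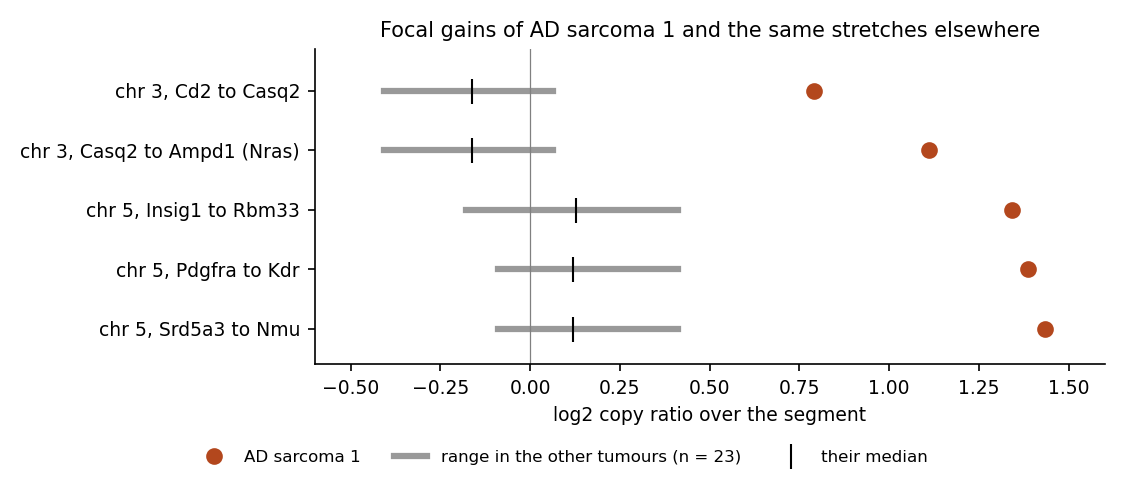
Log2 copy ratio (horizontal axis) of 5 gained segments of AD sarcoma 1 (points), with the range and median of the other 23 tumours over the same stretch (grey bars and ticks). The receptor segment, at 1.39, and the next one, at 1.43, stand above a highest value of 0.41 elsewhere.

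Farther out, a change of level before the cluster recurred at Rfc1 (chr5:65261852-65338617), a DNA replication factor gene 9.81 Mb before Pdgfra, which was picked out after the values were seen. In 12 of 24 tumours the segment that leads to the receptors started within 15 kb of Rfc1, a distance also set after the values were seen. A short segment of 21 to 29 markers lay over the gene in 13 tumours. It was up in 4, all thymic lymphomas, at 0.39 to 1.05, and down in 9, of which 3 were thymic lymphomas and 6 sarcomas, at -0.91 to -0.57. By the labels, the animals of AD thymic lymphoma 1, RP thymic lymphoma 4, AD sarcoma 5 and RP sarcoma 3 also gave ear DNA. No such short segment lay over Rfc1 in these tumours, nor in some of the others. Whether the short segments arose in the tumours was not tested. In AD sarcoma 1 the short segment was at -0.58 and the stretch between it and the receptors at 0.22.

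Genes off chromosome 5 whose copy ratio was most like that of Kit were ranked by Pearson correlation over the 24 tumours, with at most 1 gene in 5 Mb. Among the closest were Armc1 on chromosome 3 (r = 0.68), Ide (0.62) and Ina (0.53) on chromosome 19 and Gm7697 on chromosome 8 (0.49). Without AD sarcoma 1, over 23 tumours, the correlations were -0.12 for Armc1, 0.41 for Ide, 0.34 for Ina and -0.05 for Gm7697. The likeness of Armc1 and Gm7697 thus rested on 1 tumour. Over those 23 tumours the gene with the highest correlation was Mup7 on chromosome 4, at 0.49.

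The pathway around the receptors was taken as 82 other genes, of which 81 lie on autosomes. Between AD and RP tumours none of the 81 passed limma's test after Benjamini-Hochberg adjustment over all genes (threshold 0.05), in thymic lymphomas or in sarcomas. The smallest adjusted p among them was 0.481 in thymic lymphomas and 0.363 in sarcomas. Unadjusted, 8 and 6 of them had p under 0.05. Among all genes 0% passed in either comparison; 2039 and 2824 had an unadjusted p under 0.05, and 1733 and 1011 did by the exact permutation test over tumours. Without AD sarcoma 5, the AD minus RP comparison of sarcomas called 1774 genes, 1757 of them, or 8.55% of all genes, higher in AD, and 6 pathway genes, all higher. Without AD thymic lymphoma 1, the comparison of thymic lymphomas called 8 genes, none of the pathway. By the labels, AD sarcoma 5 and AD thymic lymphoma 1 are the AD tumours whose animal also gave ear DNA. AD sarcoma 5 also had the fewest segments of any tumour, 59. Whether either bears on these counts was not tested.

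Between tumour types, 31 of the 81 passed in thymic lymphomas minus sarcomas, 3 higher and 28 lower. Of all genes, 5.59% were higher and 34.1% lower. The median difference was -0.05 for the 81 and -0.04 for all genes. With each tumour centred on its autosomal median, 14 of the 81 passed, 4 higher and 10 lower, against 6.85% higher and 14.8% lower of all genes. Among all genes the centring changed the share of higher calls to 31.6%, against 14.1% without it. The total of markers separates the tumour types (211948 to 212227 in thymic lymphomas, 212240 to 212450 in sarcomas), so a difference in processing and the tumour type cannot be told apart.

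Of 9 ligands tested, 3 were lower in thymic lymphomas and none higher, so 33.3% were lower against 34.1% of all genes. Pdgfc, a ligand of Pdgfra, averaged -0.24 ± 0.14 in thymic lymphomas and -0.07 ± 0.07 in sarcomas (adjusted p = 0.0102). Vegfb, a ligand of Flt1, averaged -0.28 ± 0.21 in thymic lymphomas and -0.08 ± 0.11 in sarcomas (adjusted p = 0.0206). Vegfc, the lymphatic growth factor, averaged -0.18 ± 0.14 in thymic lymphomas and -0.02 ± 0.03 in sarcomas (adjusted p = 0.00772). Kitl, the ligand of Kit, did not pass, at -0.11 ± 0.24 in thymic lymphomas and -0.11 ± 0.08 in sarcomas. The ligands Pdgfa, Pdgfb, Pdgfd, Vegfa and Pgf did not pass either, with differences of 0.08, 0.09, 0.32, -0.09 and 0.04. With centring none of the 9 ligands passed.

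Of 7 related receptors, 3 were lower in thymic lymphomas and none higher, so 42.9% were lower against 34.1% of all genes. Pdgfrb and Csf1r, the close relatives of Pdgfra and Kit, lie side by side on chromosome 18 and had the same values, -0.32 ± 0.14 in thymic lymphomas and -0.15 ± 0.08 in sarcomas (adjusted p = 0.0139). Nrp1, a coreceptor of VEGF, averaged -0.17 ± 0.14 in thymic lymphomas and 0.01 ± 0.03 in sarcomas (adjusted p = 0.00629). None of the 3 passed with centring. Flt1 and Flt3, which lie toward the end of chromosome 5, averaged 0.22 ± 0.22 in thymic lymphomas and 0.15 ± 0.10 in sarcomas and did not pass (adjusted p = 0.514). Flt4, the receptor of VEGF-C, and Nrp2, a coreceptor, did not pass, with differences of -0.05 and 0.05. In AD thymic lymphoma 2 Flt1 and Flt3 were at 0.82 and Pdgfa, also on chromosome 5, at 0.87, above the 0.41 of Kit in that tumour.

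Of 39 signal transducers, 2 were higher and 14 lower in thymic lymphomas, so 41.0% passed against 39.7% of all genes. Lyn, a Src family kinase, averaged 0.25 ± 0.16 in thymic lymphomas and -0.05 ± 0.06 in sarcomas, and Pik3cd, the leukocyte PI3 kinase subunit, 0.31 ± 0.16 in thymic lymphomas and 0.01 ± 0.06 in sarcomas. Both lie on chromosome 4. Mapk3, Hras, Akt2 and Gab2 lie on chromosome 7 and were lower, with differences of -0.38, -0.38, -0.35 and -0.34. Pik3r1, the regulatory subunit of PI3 kinase, on chromosome 13, was lower, with a difference of -0.31. These 7 also passed with centring, but not all of the 14 lower transducers did. Crkl, an adaptor, had the largest difference, -0.59, which did not pass with centring; RP sarcomas 3 and 5 had it at 1.42 and 3.01.

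Of 16 negative regulators, 5 were lower and none higher, so 31.25% were lower against 34.1% of all genes. Rasa1, a Ras GTPase-activating protein, was among the lower ones, at -0.44 ± 0.23 in thymic lymphomas and -0.11 ± 0.05 in sarcomas. Of 10 nuclear targets, Jun was higher, by 0.28, and 3 were lower, so 40% passed against 39.7% of all genes. Jun lies on chromosome 4, as do Lyn and Pik3cd. Ccnd1, the gene of cyclin D1, was lower, at a difference of -0.37. Rasa1, Jun and Ccnd1 also passed with centring, but not all of the lower negative regulators and nuclear targets did. Some pathway genes reached 1 or above in single tumours, as Pdgfra and Kit did in AD sarcoma 1. Pdgfd was at 3.35 in AD thymic lymphoma 5. Akt1 was at 1.17 and 4.80 in AD thymic lymphomas 5 and 6. Myc was at 1.35 in RP thymic lymphoma 4 and 2.22 in RP sarcoma 2. Nras was at 1.11 in AD sarcoma 1, the tumour with the receptor gain.

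**Figure D5:**
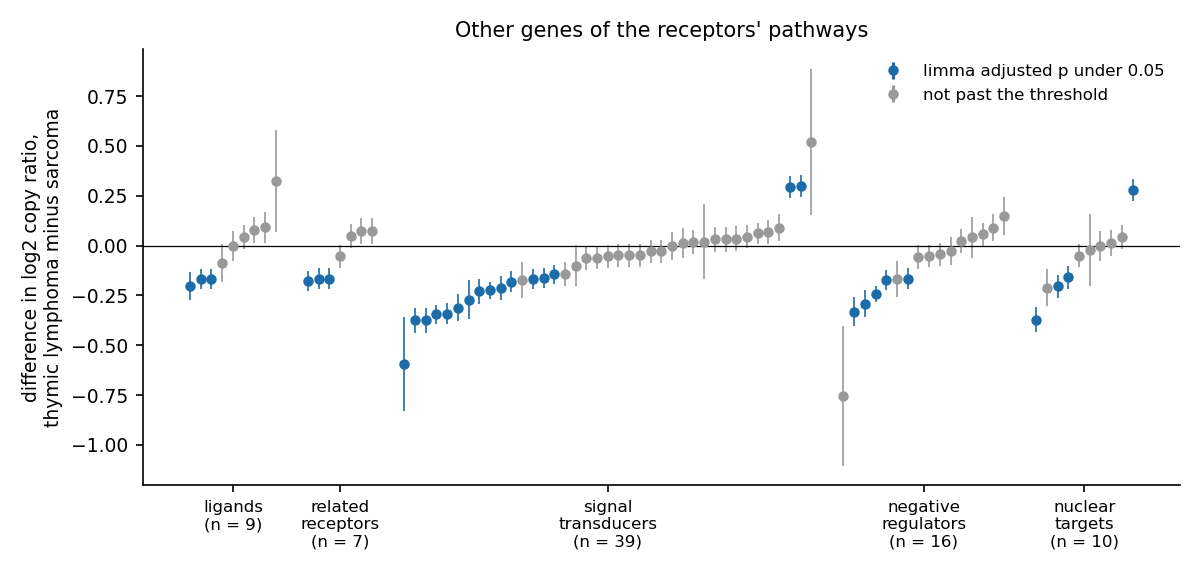
Difference in log2 copy ratio, thymic lymphoma minus sarcoma (vertical axis), for 81 pathway genes grouped by role (horizontal axis); points are limma estimates and bars their SE, blue where the adjusted p is under 0.05. Of the 31 blue points 28 lie below 0, with Lyn, Pik3cd and Jun, all on chromosome 4, above it.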

How the data were processed

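DNA of 24 tumours was measured by exome sequencing with reads of 150 nt. Tools and build listed without roles in the submitters' processing notes are GATK 4.1.0.0, BWA 0.7.17 and Trim Galore 0.6.5, and GRCm38. Per the file headers, each deposited table lists segments with a segment mean, which was read as a mean log2 copy ratio. The deposited marker counts number the capture targets or windows in a segment, not reads. The comparison DNA, the segmentation settings and the log base are not stated. An admixture of normal cells brings log2 values closer to 0.

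Gene spans, promoters and symbols came from RefSeq on GRCm38.p6; all 82 pathway symbols matched. A gene took the overlap-weighted mean of its segments, or the nearest segment where none reached it. The 20555 autosomal protein-coding genes were tested on the log2 scale with limma 3.58.1 (R 4.3.3), within each tumour type for AD minus RP, and over all 24 tumours with genotype as covariate for tumour type. Adjusted p-values are Benjamini-Hochberg values over all these genes, two-sided. The code was tested on simulated data. Other steps used Python 3.11.15, numpy 2.4.6, pandas 2.3.3, scipy 1.17.1 and matplotlib 3.10.9.

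The members and gene lists were chosen with earlier results of these data known. Genes named are the members, the genes between 74 and 77 Mb, all ligands and related receptors, other pathway genes at 1 or above or -1 or below in a tumour, the 10 with the largest difference among those that passed, and those most like Kit, of which some are not reported here; Jun, Rfc1 and the genes of other gains were named after their values were seen. Alternatives varied the gene value, centring, short segments, the gain limit, the test and the tumours included. The ear DNA is not analysed here.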

Additional observations from a re-analysis of the deposited data

Results flagged for a closer look

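In each group of 5 or 7 tumours, the highest and lowest values of the ligands, the related receptors and the 10 pathway genes with the largest difference were set against Dixon's 95% critical value. Kit, Pdgfra, Kdr and genes named for a high or low value in a tumour were left out, since their values chose them, except where they are also in those lists. This was done for 104 sets of values, 14 of which held a tumour apart from the rest; chance alone gives about 1 in 20, and genes of 1 segment share their values.

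On chromosome 5, Pdgfa was apart in AD thymic lymphoma 2 at 0.87 and in AD sarcoma 5 at 0.0241, and Flt1 and Flt3 in AD thymic lymphoma 2 at 0.82. Pdgfd was apart in AD thymic lymphoma 5 at 3.35. In AD thymic lymphoma 6, Mapk3, Hras and Ccnd1 of chromosome 7 were at -0.66. In RP sarcoma 2 these genes were at 0.27, Akt2 was at 0.19, Gab2 at 0.20 and Pik3cd at -0.10.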

How the results depend on the processing

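Of 582 values recomputed under another setting, 551 stayed within the spread between tumours or within 1.5 times the count, and 31 moved. A change of sign within that spread was counted as staying. The values include counts of lost tumours, of which no setting found any, and the receptor genes share most of their values. The number that stayed is therefore not a measure of stability. In thymic lymphomas the AD minus RP difference of each member was 0.000143 when centred on the chromosome 5 median, and 0.149 to 0.205 with 1 tumour left out at a time. The value 0.000143 is near 0 in part by construction, since the receptors' own segment supplied that median in several tumours. The number of AD thymic lymphomas with each member gained was 0 at a limit of 0.5, and 2 to 3 with 1 left out. At a limit of 0.2 it was 1 in RP thymic lymphomas, 2 in AD sarcomas and 1 in RP sarcomas. With centring on the autosomal median it was 1 in RP thymic lymphomas and 2 in AD sarcomas, and it was 0 to 1 in AD sarcomas with 1 left out. By its largest segment Kdr was at 0.20 in AD sarcoma 1, which left 0 AD sarcomas gained. In sarcomas the AD minus RP difference with 1 tumour left out ran from 0.04 to 0.38 for Kit and Pdgfra and from 0.04 to 0.18 for Kdr. Thymic lymphoma minus sarcoma ran from -0.10 to 0.05 for Kit and Pdgfra; centred on the autosomal median it was 0.01, so the sign of the main value, -0.08, did not hold. For Kdr the main value was 0.00272, and it ran from -0.02 to 0.05 with 1 tumour left out and was -0.04 centred on the chromosome 5 median.

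Across all genes, thymic lymphoma minus sarcoma called 4451 genes and 14 pathway genes with centring, against 8167 and 31, and 8002 to 8446 and 29 to 35 with 1 tumour left out. AD minus RP called 0 to 8 genes in thymic lymphomas, with 8 without AD thymic lymphoma 1. In sarcomas it called 0 to 1774 genes and 0 to 6 pathway genes, the highest without AD sarcoma 5; the cause was not tested. The exact permutation test called 0 genes, but its smallest p, 0.000583 for 7 against 7 and 0.00794 for 5 against 5, can pass adjustment over 20555 genes only where many genes reach it together, so that count says nothing about stability. The alternatives for the pathway genes in AD minus RP were chosen after seeing the data. No paired analysis of AD and RP tumours was possible because the replicate numbers follow the order of the labels and pair no tumours. Tumours that share an animal with ear DNA were not compared with it. Read depth is unknown, and the 53 markers of the receptor gain and the gaps at its ends limit its level and its borders.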
